A study of Homo sapiens with 2 samples.

Results

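The regions described here are the ZNF676 ChIP-exo peaks at one-directional protein-coding promoters. A peak was counted among them when the distance from its midpoint to a protein-coding transcript start was at most 500 bp and no start of any other transcript lay on the opposite strand within 1000 bp of that midpoint. These criteria held for 964 of 6142 ZNF676 peaks (15.7%, exact 95% binomial confidence interval 14.8 to 16.6%). They made up 66.3% of the 1454 peaks within 500 bp of a protein-coding start, and the other 490 lay at divergent promoters, where an opposite-strand start was also present. A further 105 peaks lay at starts of lncRNAs (long noncoding RNAs) and 4583 elsewhere. The 964 peaks were nearest to starts of 954 genes, of which 10 had 2 peaks and none had more.

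The peaks came from 1 library of HEK293T, a human embryonic kidney cell line, stably transduced with a doxycycline-inducible, codon-optimised ZNF676 that carried a 3HA tag. The cells were selected with puromycin at 1 µg/ml for 7 days, induced with doxycycline at 1 µg/ml and fixed with 1% formaldehyde for 10 min. ChIP-exo recovers DNA bound to the tagged protein and trims it with an exonuclease, so that read ends lie close to the contact. A second library, with ZNF728-3HA in the same cells and under the same treatment, is the other sample of the series. Because the protein was tagged and overexpressed and each protein had 1 library, no value below has a replicate check, and every test compares sets of regions within 1 library. Intervals cover the counting of regions only, and the number of reads behind a peak is unknown.

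KRAB zinc finger proteins bind DNA through arrays of zinc fingers and recruit the co-repressor KAP1 (TRIM28), which brings histone methylation and silencing. They are best known for binding transposable elements. Most protein-coding promoters in mammals lie in CpG islands, stretches rich in G, C and the dinucleotide CG that largely escape DNA methylation and are bound by SP, KLF, NRF1, ETS and NF-Y factors.

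The sequences of the strongest regions show their composition. Of the 20 highest-scoring peaks, 4 had a central 101-bp window that touched no annotated exon. They are given in GRCh37 on the strand of the gene, with every CG dinucleotide in capitals.
SEMA4C (chr2:97535455-97535555, minus strand): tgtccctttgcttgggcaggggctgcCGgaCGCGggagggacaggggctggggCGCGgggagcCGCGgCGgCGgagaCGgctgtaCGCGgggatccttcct
SAMD5 (chr6:147829556-147829656, plus strand): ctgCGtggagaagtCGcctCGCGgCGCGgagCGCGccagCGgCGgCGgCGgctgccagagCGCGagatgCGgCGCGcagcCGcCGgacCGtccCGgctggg
MEF2D (chr1:156470654-156470754, minus strand): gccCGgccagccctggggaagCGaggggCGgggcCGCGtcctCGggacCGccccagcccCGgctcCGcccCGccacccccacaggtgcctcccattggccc
B4GALT5 (chr20:48330453-48330553, minus strand): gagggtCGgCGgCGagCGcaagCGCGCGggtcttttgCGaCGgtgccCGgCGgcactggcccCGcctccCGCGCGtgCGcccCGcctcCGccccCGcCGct
The 4 windows held 12, 21, 10 and 20 CG dinucleotides in that order, at a GC content of 75.2, 81.2, 82.2 and 82.2%. The G and C were shared unequally between the strands: the SEMA4C window was 48.5% G and 26.7% C, the MEF2D window 33.7% G and 48.5% C. The GC box, GGGCGG on either strand and the core bound by SP and KLF factors, occurred 3 times in the MEF2D window and 1 time in that of B4GALT5, and was absent from those of SEMA4C and SAMD5.

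The score that the authors deposited for each peak, in MACS a multiple of the negative log10 p for enrichment over input, ranged at one-directional promoters from 80.03 to 3100 with a median of 109.5 (quartiles 89.9 and 145.7). A score of 200 or more was reached by 124 of the 964 peaks (12.9%, interval 10.8 to 15.1%). At divergent promoters 76 of 490 peaks reached it (15.5%, 12.4 to 19.02%), and at lncRNA starts 15 of 105 (14.3%, 8.22 to 22.5%). Neither difference passed Fisher's exact test (two-sided, adjusted p = 0.343 and 0.648 over the 2 comparisons). Peaks elsewhere reached 200 in 341 of 4583 cases (7.44%). The peaks at one-directional promoters were broad, 664.5 bp at the median (range 121 to 2409 bp) against 281 bp for peaks elsewhere. Those at divergent promoters (696 bp) and lncRNA starts (521 bp) were broad too. For the one-directional peaks the median width was 586.5 bp at scores under 100, 700.5 bp at 100 to 200 and 868 bp at 200 or more. The median GC content of their central 101 bp was 76.2, 77.2 and 75.2% in the same bands.

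CFD, GALNT13 and HINT1 carried a peak at 3100, the highest score in the list. The highest score at divergent promoters, at lncRNA starts and elsewhere was also 3100. Whether this value is a ceiling of the score is unknown, and peaks that share it cannot be ranked. CFD, which encodes complement factor D, had its peak at chr19:861480-862391 with the midpoint in the coding sequence. GALNT13, a glycosyltransferase that starts mucin-type O-glycans, had one at chr2:154727989-154729179, and HINT1, a nucleotide hydrolase, one at chr5:130500377-130501517, both with the midpoint in an untranslated exon. The glucose transporter gene SLC2A8 followed at 2466.52 and PRICKLE1, a gene of planar cell polarity, at 1622.19. Enzymes and metabolic genes among the 20 were CYP26B1, which degrades retinoic acid (1360.96), TARS3, a threonyl-tRNA synthetase (1153.11), B4GALT5, a galactosyltransferase (729.29), and ETNK2, an ethanolamine kinase (750.09). Genes of signalling and the cell surface were RFTN1, which encodes a lipid raft protein (1287.77), ROBO2, a receptor for SLIT guidance cues (883.51), SEMA4C, a semaphorin (864.57), the cation channel gene TRPM3 (909.53) and CACNA1G, which encodes a T-type calcium channel (723.01). The others were CCND1, which encodes cyclin D1 (1236.75), TBCD, a tubulin folding cofactor (1218.44), EXOSC6, a subunit of the RNA exosome (809.99), MEF2D, a MADS-box transcription factor (748.11), SAMD5 (759.39) and MAGED4 (770.26). MAGED4 has a near-identical copy, MAGED4B, that also held a peak (542.98), so reads could be shared between them and both values are uncertain. All 20 peaks covered the start, 13 had their midpoint downstream of it, and their central windows had 67.3 to 82.2% GC and 7 to 21 CG dinucleotides.

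**Figure D1:**
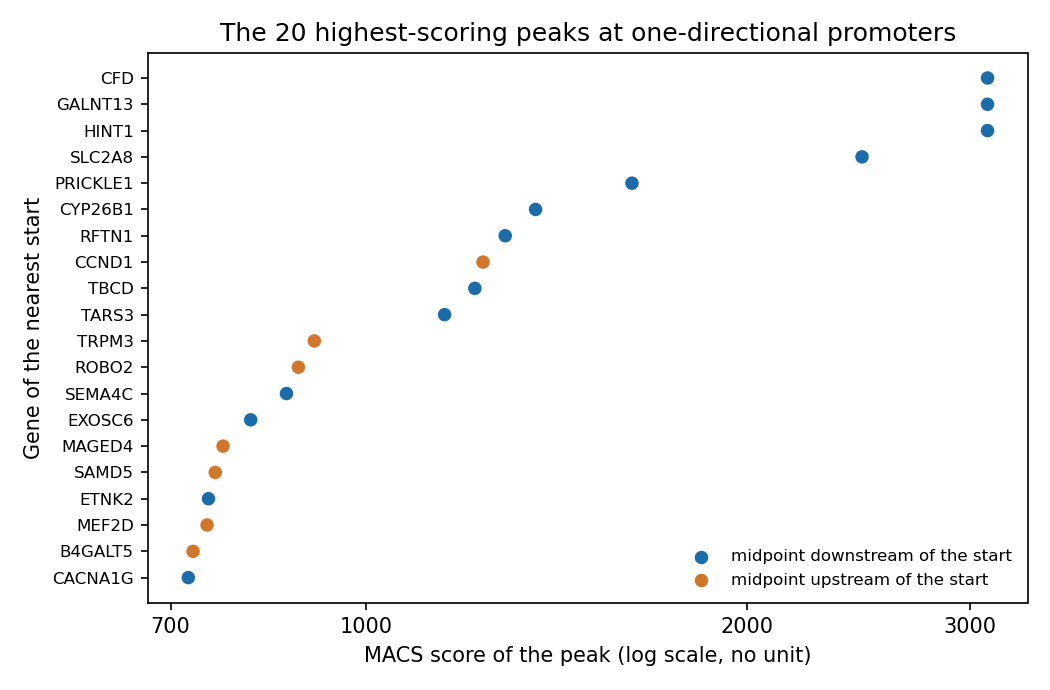
Deposited MACS score (log scale, no unit) of the 20 highest-scoring ZNF676 peaks at one-directional promoters, by the gene of the nearest start, with 1 point per peak and colour giving the side of the start on which the midpoint lay. CFD, GALNT13 and HINT1 share the top score of 3100, which is also the highest in the other classes of peak. The lowest of the 20 is CACNA1G at 723.01, and MAGED4 has a near-identical copy.

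More midpoints lay on the transcribed side of the start than upstream of it. The criteria held all midpoints within 500 bp of a start and the peaks were broad, so their closeness to it is given as a description only. Of 964 midpoints, 386 (40.0%, 36.9 to 43.2%) were within 100 bp of the nearest start, and 833 peaks (86.4%, 84.1 to 88.5%) covered it. The midpoint was downstream in 660 peaks and upstream in 300, with 4 exactly on the start, so that 31.2% of the 960 with a side were upstream (28.3 to 34.3%, exact binomial test against an even split, two-sided p = 9.16e-32). The median midpoint was 78 bp downstream (quartiles -24.8 and 211.6 bp). Downstream peaks were in the majority at every score: 68.7% at scores under 100, 70.6% at 100 to 200 and 62.1% at 200 or more (exact binomial p = 2.96e-13, 5.38e-19 and 0.00893). The condition on opposite-strand starts, which often lie upstream, could treat the sides unequally, but without it the share was 67.8% of 1449 peaks with a side, and at divergent promoters alone it was 66.1%. By annotation 370 midpoints (38.4%) were in an untranslated exon, 261 (27.1%) in an intron, 179 (18.6%) in coding sequence, 17 in another exon and 137 (14.2%) outside protein-coding transcripts. CYP26B1 (midpoint 178 bp downstream) and TBCD (90 bp) are examples in coding sequence, SEMA4C (311.5 bp) in an intron and EXOSC6 of a midpoint far downstream (451 bp). SAMD5 (219.5 bp) and MEF2D (133 bp) had the midpoint upstream, outside the transcript.

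**Figure D2:**
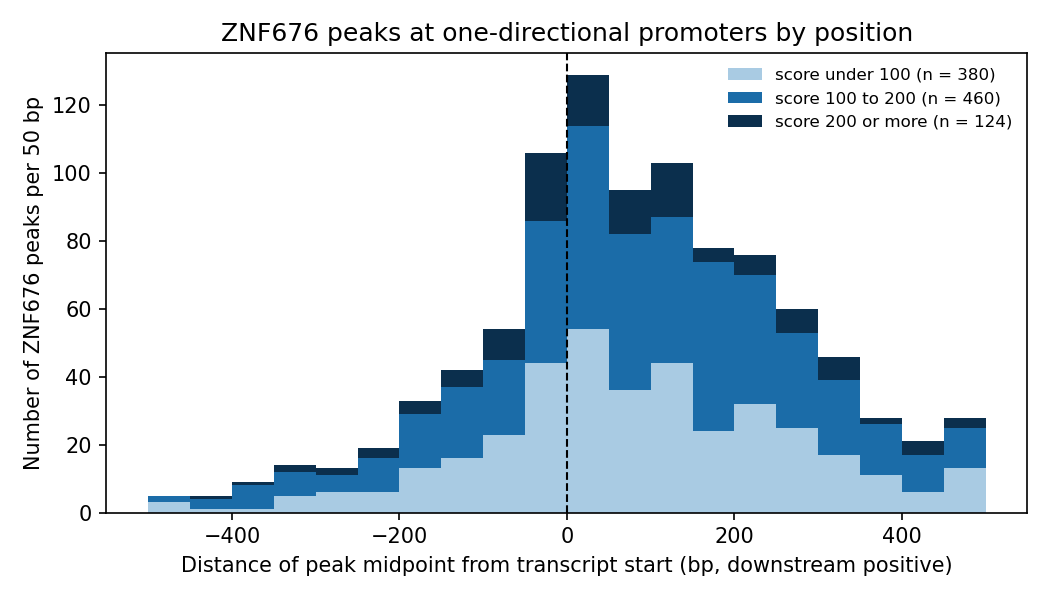
Number of ZNF676 peaks at one-directional promoters per 50 bp of distance (bp) between the peak midpoint and the nearest protein-coding transcript start, downstream positive, stacked by score band. The counts are highest just downstream of the start (dashed line), and 660 of the 964 midpoints lie downstream and 300 upstream.

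The CG dinucleotides around the start were also shared unequally, and the side of the peak moved with them. In a comparison added after the data were seen, CGs were counted over 500 bp on each side of the start. The peak lay on the CG-richer side in 659 of 947 cases with a difference (69.6%, 66.5 to 72.5%). Where the downstream side was richer, 497 of 633 midpoints (78.5%, 75.1 to 81.7%) were downstream. Where the upstream side was richer, 152 of 314 (48.4%, 42.8 to 54.1%) were downstream (Fisher's exact test, odds ratio 3.89, p = 2.9e-20). A downstream excess of CGs was not particular to promoters with a peak. At a promoter GC content of 63.1% or more, the downstream side was richer in 68.5% of 720 one-directional promoters with a peak. Without a peak it was richer in 65.5% of 4981. Around the midpoint the median GC content was 76.2% in 101 bp and fell to 50.5% at 1000 bp on the upstream and 52.5% on the downstream side, and the mean number of CGs fell from 13.2 to 3.22 and 3.35. Peaks at divergent promoters had the same median at the midpoint (76.2%, 13.0 CGs), while those at lncRNA starts had 68.3% and 8.61 CGs.

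**Figure D3:**
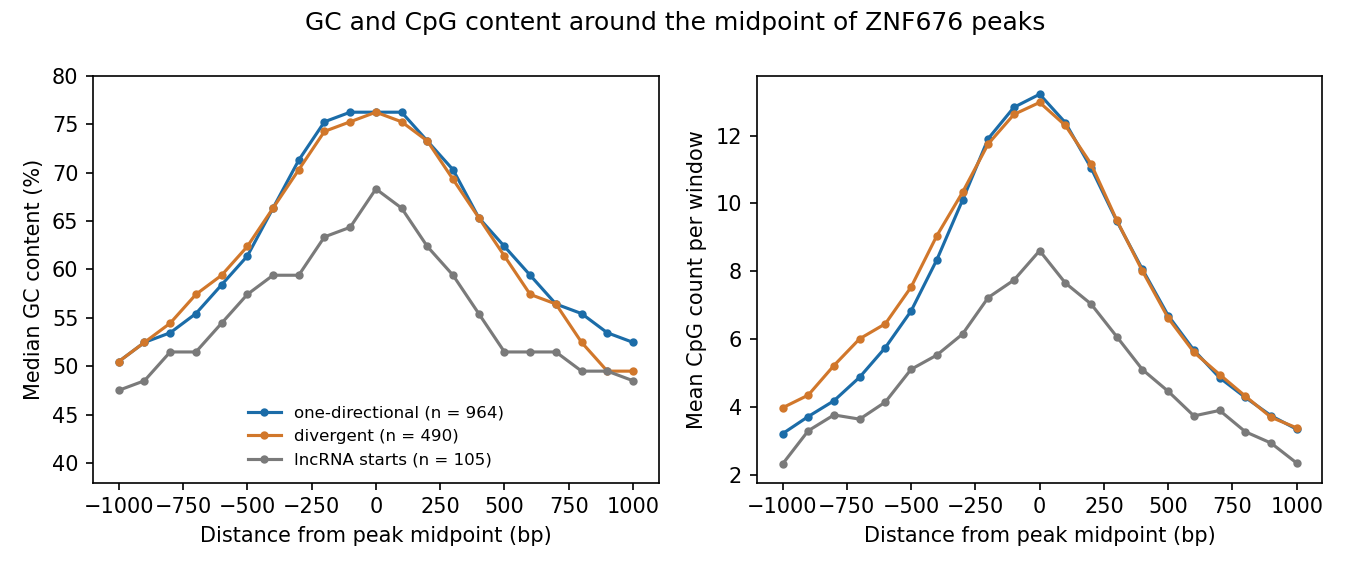
Median GC content (%, left) and mean count of CG dinucleotides (right) in 101-bp windows at distances of up to 1000 bp from the midpoint of ZNF676 peaks, with 1 line per class of peak and positive distances downstream for the protein-coding classes. The one-directional and divergent lines both peak at the midpoint, at 76.2% GC, above the lncRNA line at 68.3%.

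Few one-directional promoters carried a peak. The windows of 500 bp around protein-coding starts, joined where they overlapped, gave 28346 promoters with no opposite start within 1000 bp of their starts, of which 952 held a ZNF676 midpoint, a background of 3.36% (3.15 to 3.57%). Among 5544 divergent promoters 491 held one (8.86%, 8.12 to 9.64%; Fisher's exact test, odds ratio 0.358, two-sided p = 2.81e-63). One-directional promoters with a peak had a median GC content of 68.3% against 52.3% in those without. Their ratio of observed to expected CG dinucleotides was 0.844 against 0.323. Among promoters with a GC content of 63.1% or more, the 20% richest in GC, these medians were 70.2 against 67.4% and 0.858 against 0.765.

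Across 10 bands of equal size by GC content, the share of one-directional promoters with a peak went from 0.0604% (2 of 3314) in the lowest to 18.8% (461 of 2449) in the highest. In the highest band divergent promoters had 19.04% (179 of 940; Fisher's exact test, adjusted p = 1), an odds ratio of 0.986. The one-directional share was lower in bands 3 to 7 and 9 (adjusted p between 1.26e-08 and 0.042 over the 10 bands) and did not pass the test in bands 1, 2, 8 and 10. Joined windows differ in length, and a longer one can hold more midpoints. With 1 start per promoter and windows of 1001 bp, an alternative added after the data were seen, the shares were 2.88 and 6.89% (Fisher's exact test, p = 1.39e-41) and bands 6 and 7 alone passed (adjusted p = 0.00253 and 0.000386). In the joined windows of one-directional promoters with a GC content of 63.1% or more, the share was 10.1% (8.91 to 11.3%) with 1 annotated start position. It was 14.3% with 2 or 3 positions, 14.8% with 4 to 6 and 16.2% (11.9 to 21.3%) with 7 or more. More starts also meant a longer window.

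**Figure D4:**
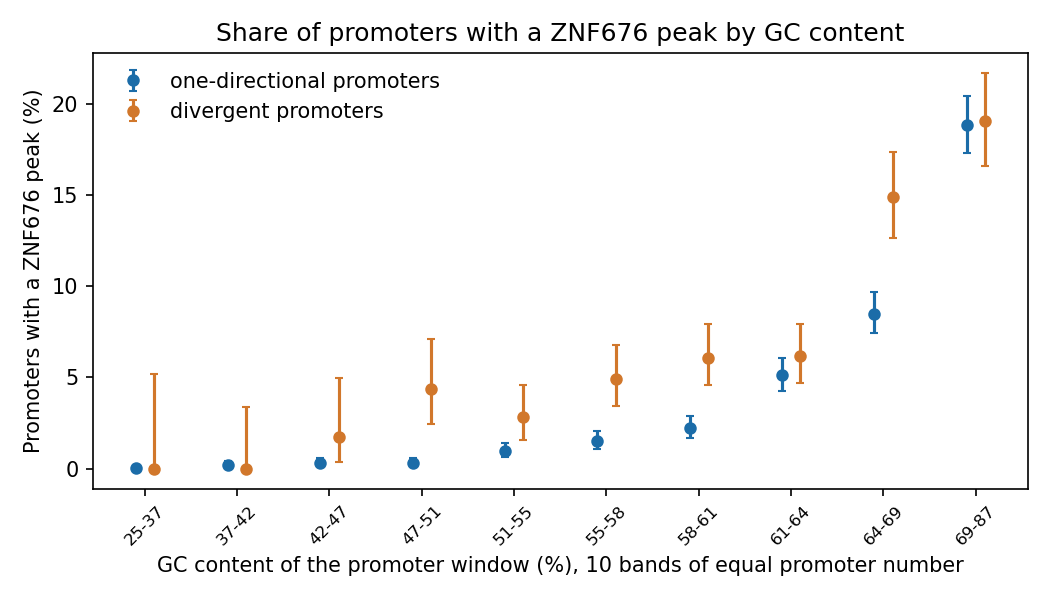
Share of promoters with a ZNF676 peak midpoint (%) in 10 bands of GC content of equal promoter number, for one-directional and divergent promoters, with exact 95% binomial intervals as bars. The one-directional share rises from 0.0604 to 18.8%, and in the highest band it overlaps the divergent share of 19.04%.

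Motifs of known promoter factors were searched on both strands within 50 bp of each midpoint, beside windows 300 bp to either side and windows at the starts of all 28346 one-directional promoters. The GC box was present in 449 of 964 central windows (46.6%, 43.4 to 49.8%), in 37.3% of the flanks and in 18.9% of all start windows. At divergent peaks it was present in 46.9%. CCAAT, the box bound by NF-Y, was present in 40 (4.15%, 2.98 to 5.61%), against 7.62% of the flanks and 11.95% of all start windows. TATAAA, bound by TATA-binding protein, was present in 10 (1.04%), against 1.61 and 5.70%. The E-box CACGTG was present in 24 (2.49%, against 2.39% of start windows). Cores of other factors each occurred in fewer than 10 windows, printed against the flanks and all start windows in that order. NRF1 (GCATGCGC) had 0.934% against 0.622 and 0.977%, and the CGCG element (CTCGCGAG) 0.726% (0.292 to 1.49%) against 0.311 and 0.201%. ETS factors (CCGGAAGT) had 0.622% against 0.467 and 1.37%, and YY1 (AAGATGGCG) 0.415% against 0.259 and 0.706%. CREB and ATF factors (TGACGTCA) had 0.311% against 0.571 and 0.649%. AP-1 (TGACTCA) had 0.207% against 0.519 and 1.58%, and E2F factors (GCGGGAAA) 0.104% against 0.778 and 0.328%. ZNF143's core CTACAATTC occurred in 0 of 964, with an upper bound of 0.382%. The start windows were not matched on GC content, which was far higher at the peaks. None of the 12 motifs differed between peaks scored 200 or more and under 100 by Fisher's exact test, with 0 also at an unadjusted p under 0.05. The rarest motifs could not have passed. The E2F and AP-1 cores each occurred in 0 of 124 high-scoring and 1 of 380 low-scoring windows, and ZNF143's in 0 of both. For the other rare cores the test had little power. For the GC box these shares were 48.4 and 41.8% (Fisher's exact test, adjusted p = 1).

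Words of 8 bases were ranked on the 497 peaks of odd-numbered chromosomes by their share at the midpoint relative to the flanks, and read on the other 467. The 10 leading words were 87.5 to 100% G and C. On the chromosomes where they were read they occurred in 2.36 to 13.1% of central windows and 1.499 to 6.85% of flanks, and 9 of the 10 were more frequent at the midpoint. The commonest were CGCCGCGC (13.1 against 6.75%) and CCGCCGCG (12.2 against 6.85%). Since GC content also falls from the midpoint to the flanks, a GC-rich word and GC content cannot be told apart here. The same ranking on the 341 peaks that lay away from starts and scored 200 or more, added after the data were seen, gave words of 50 to 75% G and C such as AGCCCAGA, CTCCTCAA and GCCCTTCA. They occurred there in 11.4 to 27.8% of the windows read and in at most 1.70% of their flanks. In the 964 windows at one-directional promoters the same words occurred in 0.207 to 2.39%. At least 1 of them was present in 54 windows (5.60%, 4.24 to 7.25%), compared with 176 of the 341 (51.6%, 46.2 to 57.0%), part of which were used to rank them. No window at a one-directional promoter held 4 or more (0 of 964, upper bound 0.382%), whereas 93 of the 341 did (27.3%, 22.6 to 32.3%). Several of the words overlap, such as CCAGCCCA, CAGCCCAG and AGCCCAGA, so 4 words in a window need not be 4 separate matches. The 341 again include the 165 peaks used to rank the words. Whether those 341 peaks share words because they lie in copies of 1 repeat was not tested.

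A small number of the regions were not GC-rich. The central 101 bp ranged from 30.7 to 97.0% GC, 22 of 964 windows were below 50% and 7 held no CG. The lowest, named after their values were seen, were ALDH1A1, a retinaldehyde dehydrogenase (30.7%, score 83.53), MCCC2, a subunit of methylcrotonyl-CoA carboxylase (36.6%, 97.12), TRAPPC3L (36.6%, 83.53) and RNF24 (36.6%, 92.55). The highest was ZNF713 (97.0%, 23 CGs, score 326.34). TSPAN7, which encodes a tetraspanin, scored 501.93 with 49.5% GC and 3 CGs, and the homeobox gene HOXA7 scored 150.84 with 47.5% GC.

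TSPAN7 was also 1 of 2 genes at which a ZNF728 peak overlapped the ZNF676 peak. Its ZNF676 peak (chrX:38420637-38421033) contained the ZNF728 peak (chrX:38420743-38420938, score 91.83). At ZNF775, a zinc finger gene, the ZNF676 peak (chr7:150075536-150076813, score 190.98) contained a ZNF728 peak (chr7:150075915-150076242, score 121.94). The other 962 ZNF676 peaks at one-directional promoters had no ZNF728 peak within 1000 bp. The share of all 6142 ZNF676 peaks with such an overlap is not given here. A low overlap can therefore not be called particular to these regions. In the ZNF728 list, made in the same way, 8 of 248 peaks (3.23%, 1.40 to 6.26%) met the criteria for a one-directional promoter, against 15.7% of the ZNF676 list. The lists differ in size and come from 1 library each, and this difference has no test.

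In 10 genes 2 separate peaks were present, and the 5 with the highest summed score are given. At ETNK2 the peaks were neighbours (chr1:204120175-204120709, score 750.09, and chr1:204120738-204121389, score 84.32), each nearest to a different start. WNT2B, a Wnt ligand gene, had a peak of 338.47 at chr1:113051208-113052034 with 75.2% GC and one of 96.04 at an earlier start (chr1:113009857-113010260) with 43.6% GC and 1 CG. At NR2F2, which encodes the nuclear receptor COUP-TFII, the scores were 302.13 and 96.26 and the midpoints had 83.2 and 57.4% GC. RPS6KA3, a ribosomal S6 kinase gene, had 180.1 and 106.96, and ARRDC2, an arrestin-domain gene, 169.99 and 84.94. In these 5 genes the higher-scoring peak had the higher GC content, but PPP1R12B (97.46 at 40.6% and 82.15 at 76.2% GC), RNF24 (92.55 at 36.6% and 89.63 at 85.1% GC) and ZNF800 (132.39 at 81.2% and 80.59 at 83.2% GC), named after their values were seen, had the opposite order.

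Gene families were compared with the background of 956 of 16363 genes with a one-directional promoter, 5.84%. Families were matched by patterns of gene symbols, and a gene was counted when the starts of its promoter, and not the peak midpoint, had no opposite start within 1000 bp. Of the 954 genes nearest to the 964 peaks, 15 were not counted in this way, and 17 of the 956 counted genes were not the nearest gene of any of these peaks. Because GC content differs between families, the count that the shares of the 10 GC bands would give is printed beside each, and no test was made. Of 300 solute carrier genes 24 had a peak (8%, 5.19 to 11.7%), where the bands give 19.9. Among them were SLC2A8, SLC27A1, a fatty acid transporter gene (474.29), and SLC32A1, which encodes the vesicular GABA transporter (285.81). SLC5A3 was counted through the peak that also counts for MRPS6 (138.7). The tally leaves out SLC22A4 (87.03), for its opposite start, and SLC9B1 (142.39), SLC35D2 (101.46), SLC35F5 (88.77) and SLCO3A1 (85.58), whose symbols the pattern did not match, all named after their values were seen. One of the 24, SLC2A4RG, encodes a regulator of a transporter gene and not a transporter. Of 454 zinc finger genes 18 had a peak (3.96%, 2.37 to 6.19%; bands 18.7), led by ZNF713, ZNF362 (232.07) and ZNF227 (218.62). ZNF536 (168.68) and ZNF668 (82.93) had peaks among the 964 but are not in this tally, since the promoters with these peaks did not meet the criterion at the starts. ZFP36L1, 1 of the 18, encodes a protein that binds RNA. The pattern left out zinc finger genes with other symbols that had a peak, such as HIC2 (318.77), KLF16 (247.61), ZBTB8A (220.47) and KLF4 (189.46). These were named after their values were seen, and the share over all zinc finger genes is unknown. Cilium and axonemal dynein genes had 2 of 96 (2.08%; bands 2.55), DNAH2, a dynein heavy chain gene (122.65), and RSPH6A, a radial spoke gene (85.68). This cilium list left out other genes of the cilium with a peak, such as CPLANE2 (216.19), DYNC2I2 (126.1), EVC (112.81), TTLL6 (94.06) and CYS1 (85.04). They were named after their values were seen, and the share over all such genes is unknown. As tallied, these 3 families lay near the band values.

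Among genes of growth and protein turnover, cyclins and cyclin-dependent kinases had 4 of 39 (10.3%, 2.87 to 24.2%; bands 2.06). CCNJL (104.77) was not matched by the pattern of this list. CCND1 was followed by CCNT1, the cyclin of the elongation factor P-TEFb (618.81, at 52.5% GC), and CCND3 (123.03). Ubiquitin-conjugating enzymes had 5 of 30 (16.7%, 5.64 to 34.7%; bands 2.59), with UBE2S (214.2), UBE2Q1 (170.54) and UBE2D2 (132.09) highest. Proteasome subunits had 2 of 32 (6.25%; bands 0.960), PSMC4 (88.97) and PSMD3 (80.31), and heat shock and J proteins 3 of 39 (7.69%; bands 2.25), DNAJB14 (96.71), DNAJB6 (90.11) and DNAJC6 (88.87). HOX genes had 3 of 28 (10.7%, 2.27 to 28.2%; bands 1.57), HOXD8 (212.58), HOXA7 and HOXB8 (131.12), and kinesins 2 of 28 (7.14%; bands 2.26), KIF13A (96.97) and KIF1A (84.85). Each of these intervals contains 5.84%.

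The intervals contained the background for genes of the gene expression machinery too. Mitochondrial ribosomal proteins had 5 of 47 (10.6%, 3.55 to 23.1%; bands 1.87), MRPL23 (204.56), MRPS6 (138.7) and MRPL39 (135.03) among them, and cytosolic ribosomal proteins 1 of 56 (1.79%; bands 1.33), RPL39L (106.85). Splicing factors had 3 of 41 (7.32%; bands 1.22), SRSF4 (178.08), SRSF5 (158.15) and LSM6 (103.64). One gene had a peak among 41 translation initiation factors (EIF5, 114.23, bands 1.78) and 1 among 26 aminoacyl-tRNA synthetases (SARS1, 91.16, bands 0.6935). The same held for 19 Mediator subunits (MED13, 164.18, bands 1.02) and 20 genes of RNA polymerase II and TFIID (POLR2C, 80.65, bands 0.637). It also held for 33 replication-dependent histones (H4C11, 125.77, bands 0.267) and 28 genes of homologous recombination and Fanconi anaemia (RMI2, 80.92, bands 0.683). The pattern for synthetases matched symbols ending in 1 or 2 and so left out TARS3, whose peak scored 1153.11, far above that of SARS1. The list with RMI2 left out RDM1 (267.75), FAAP100 (106.1) and ABRAXAS1 (101.07), genes of DNA repair with higher scores, named after their values were seen. No peak was found at 26 complex I genes (bands 0.912) or 27 genes of KAP1 co-repression and heterochromatin (bands 1.37). None was found either at 55 protocadherins (bands 0.550), 51 keratins (bands 1.13) or the NF-Y subunit genes (bands 0.194). With so few genes, the upper bounds of these lists, 6.49% or more, lay above the background. The KAP1 and heterochromatin list left out genes such as EZH2 (83.78) and MBD1 (85.52), which had a peak and were named after their values were seen. The 379 olfactory receptor genes had no peak, with an upper bound of 0.969% and a band value of 1.09 genes.

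**Figure D5:**
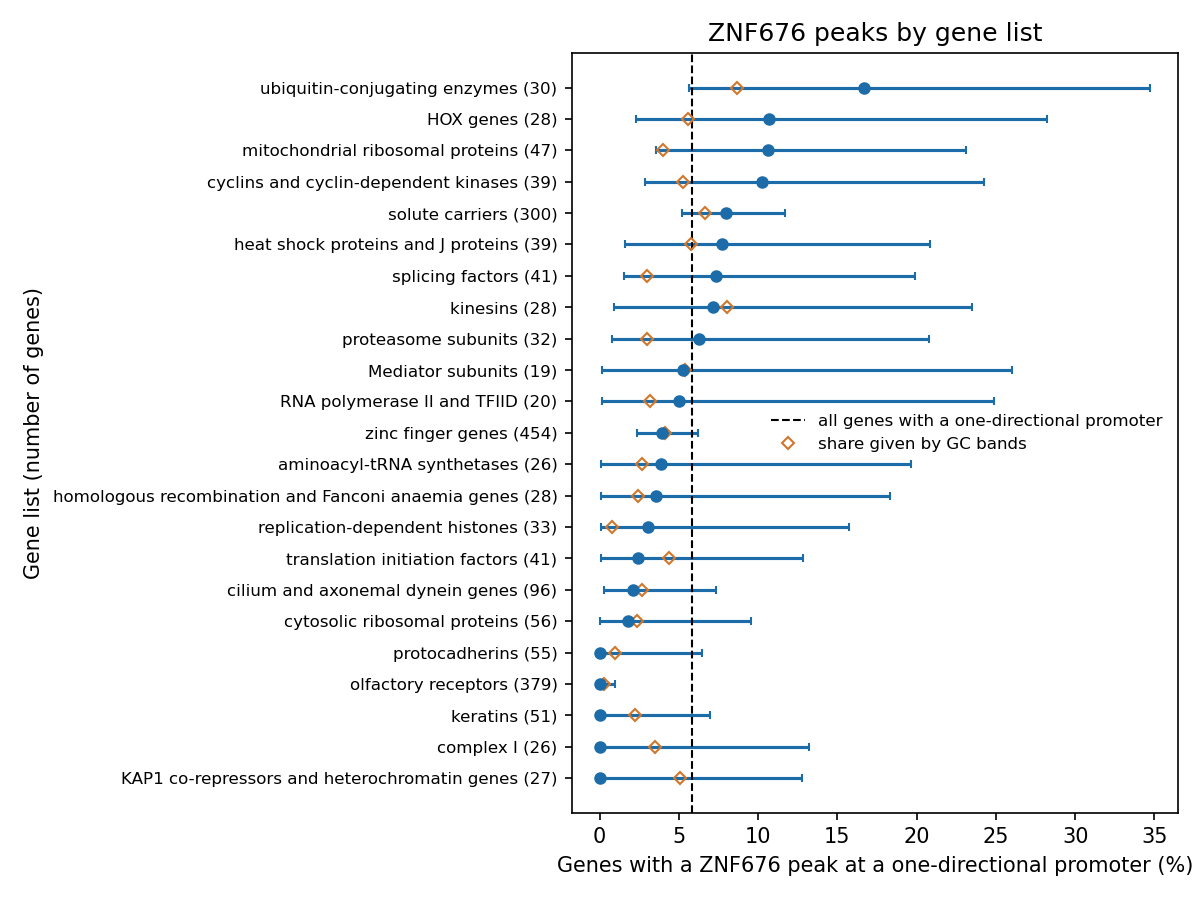
Share of genes with a ZNF676 peak at a one-directional promoter (%) in each gene list of 15 or more genes, with exact 95% binomial intervals, the share that GC bands give (open diamonds) and the share of all 16363 genes (dashed line, 5.84%). Olfactory receptors are the only list whose interval lies wholly below the dashed line, with an upper bound of 0.969%.

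By chromosome, the share of one-directional promoters with a peak was compared with the share that the GC bands give, a comparison added after the data were seen. Of 24 chromosomes, 22 had an interval that contained the band share. The 24 intervals were not adjusted for their number. Chromosome 6 lay narrowly above its band share, with 47 of 1313 promoters where the bands give 33.4 (3.58%, 2.64 to 4.73%, against 2.54%). Chromosome 19 lay below its band share, with 47 of 1998 promoters (2.35%, 1.73 to 3.12%) where the bands give 85.0 (4.26%). On chromosome 19 the zinc finger genes had 5 of 218, not counting the peak at ZNF536, where the bands give 7.14, and the other genes 42 of 1006 (4.17%, 3.03 to 5.60%), where they give 76.5. The lower count on chromosome 19 therefore lay mostly in genes outside this list of zinc finger genes.

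Just inside the criteria lay the peak of ENSG00000288625, 498.5 bp from the start (score 98.7), and that of ZNF536, 1007 bp from an opposite start (168.68). Just outside lay the peaks of IQSEC1 at 500.5 bp (83.45) and TUBB2B, 999 bp from an opposite start (80.33).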

How the data were processed

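ChIP-exo for HA-tagged ZNF676 and ZNF728 was performed in HEK293T, 1 library per protein. Per the labels and the study's methods, the authors aligned single-end reads of 100 bases with Bowtie2 (hg19), discarded those of mapping quality under 10 and those in ENCODE blacklisted or high-input regions, and ran MACS on each library with a total input as the control. The deposited values are peak intervals with a score. Every ZNF676 score was at least 80.01 although the peak names run to 41638, so weaker peaks are not in the list. The files hold neither read counts nor summits, so the depth is unknown and positions are midpoints.

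Starts came from GENCODE release 44 lifted to GRCh37 (transcripts of type protein_coding), sequences from GRCh37. Of the promoter windows, 25 without determined bases were left out and 33890 kept. Shares have Clopper-Pearson intervals. Tests were Fisher's exact and exact binomial tests, two-sided, adjusted by Benjamini-Hochberg within each family. The members, lists and motifs were chosen with earlier results of these data known. Genes named are those of the 20 highest-scoring peaks, of peaks overlapped by ZNF728, up to 3 per gene list and 5 with several peaks, by score. Alternatives changed the windows, the transcripts, the opposite starts, the score threshold and the overlap. The counting was tested on simulated data. Python 3.11.15, NumPy 2.4.6, SciPy 1.17.1 and pysam 0.24.0 were used.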

Additional observations from a re-analysis of the deposited data

How the results depend on the processing

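The lower share of one-directional than divergent promoters with a peak (2.28 to 4.56% under 8 alternatives) and the minority of upstream midpoints (29.7 to 34.7% under 8) kept their direction and passed their tests throughout. The comparisons of high scores passed under none of 7 alternatives (lowest adjusted p by Fisher's exact test 0.254 and 0.296), but 3 turned direction. Against lncRNA starts the one-directional share was higher with a score threshold of 100 (60.6 against 55.2%) and with a start window of 250 bp (12.9 against 10.2%), and against divergent promoters with opposite starts of protein-coding genes only (13.9 against 12.9%). The GC box was present in 27.3% of windows of 25 bp on each side, in 68.5% of windows of 100 bp and in 49.8% at or above the median score, the first 2 being shorter and longer windows. ZNF728 overlaps stayed at 2. Under the other windows and annotations, the number of peaks that met the criteria ranged from 735 (250 bp around starts) to 1314 (opposite starts of protein-coding genes only). No paired analysis was possible because each protein had a single library, and none could be left out. Binding by ZNF676 and a signal that GC-rich promoters would give in any such library cannot be told apart with 1 library per protein.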
